A study of Mus musculus with 3 samples.

Results

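The fatty acid elongases Elovl1, Elovl2, Elovl3, Elovl5 and Elovl6 and the fatty acid desaturases Fads1, Fads2 and Fads3 were followed in the binding data of mouse liver. The rule for these 8 genes is their names and uses no signal, although they were picked with earlier results of these data known. All 8 were found among the 22367 protein-coding genes of the annotation used (GENCODE release M1, NCBI37/mm9). For each gene, binding was read within 10 kb of the gene start and over the whole gene body, which is called the gene window here. Liver chromatin was taken from wild type males of the C57BL/6 strain, with an age of 3 months in the labels, and no treatment is named for them. There were 3 libraries, 1 precipitated with an antibody against retinoid x receptor alpha (RXRα), 1 with an antibody against retinoic acid receptor alpha (RARα), and 1 of input chromatin that was not precipitated. Each was a single library. The values therefore describe these libraries, the intervals cover counting error only, and no p-value was computed. Chromatin of whole liver holds all of its cell types, so fewer bound cells and weaker binding per cell cannot be told apart.

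Elongases add carbon units to the acyl chain and desaturases introduce double bonds, and together they turn dietary and newly made fatty acids into the very long and the polyunsaturated chains of membranes. Fads2 and Fads1 act in turn with Elovl5 and Elovl2 on the essential fatty acids, Elovl6 lengthens palmitate, and Elovl1 and Elovl3 act mainly on long saturated and monounsaturated chains. In liver, many of these genes are known targets of sterol regulatory element binding proteins, liver x receptor (LXR) and peroxisome proliferator-activated receptor α (PPARα), and LXR and PPARα bind DNA as dimers with RXR. RXR dimers bind pairs of the hexamer AGGTCA, and the number of bases between the hexamers of a direct repeat (DR) helps to decide which partner binds.

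The sequences below belong to selected sites of these genes, not all of them strongly bound, and all were read from the NCBI37/mm9 genome. The Fads2 promoter lay under the highest-scoring RARα peak of the 8 genes, and it is shown from 250 bases before the start up to the start, chr19:10175994-10176243 on the minus strand, with each CpG in capitals.
Fads2 promoter: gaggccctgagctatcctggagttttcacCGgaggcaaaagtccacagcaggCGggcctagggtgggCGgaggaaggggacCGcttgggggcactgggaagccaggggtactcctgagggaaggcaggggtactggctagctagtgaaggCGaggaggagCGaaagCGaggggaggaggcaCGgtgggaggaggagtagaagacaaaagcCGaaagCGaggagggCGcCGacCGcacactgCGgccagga
The intronic region chr3:129309857-129310112 of Elovl6, shown on the plus strand, held the highest RXRα ratio of that gene, with no RARα peak of any score. Capitals mark the hexamers of a DR4, which reads in the opposite direction on this strand.
Elovl6 intronic region: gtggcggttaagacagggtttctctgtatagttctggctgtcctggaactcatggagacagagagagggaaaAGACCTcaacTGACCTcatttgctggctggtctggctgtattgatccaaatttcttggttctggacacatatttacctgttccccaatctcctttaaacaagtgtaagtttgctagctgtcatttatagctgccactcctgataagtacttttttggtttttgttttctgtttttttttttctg
The next sites are direct repeats near bound positions of the desaturase genes, each with its hexamers in capitals. The first was at the centre of an RXRα region of Fads1, the next was in an intronic RARα peak of Fads2, and the last was in a coding exon of Fads3 at a RARα summit.
Fads1 DR1, chr19:10267013-10267037, minus strand: ctatatAGGTCAaAGGGCAggggaa
Fads2 DR4, chr19:10146449-10146476, minus strand: ccacagAGGTCAgaagAGGTCAtcagag
Fads3 DR3, chr19:10129606-10129632, minus strand: cttcaaAGTTCAccaAGGTGAgcagcg

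RARα and RXRα binding was present at every one of the 8 genes. All 8 had a RARα peak with a score greater than 20 in the gene window, compared to 57.9% of all protein-coding genes. All 8 also had an RXRα region, a stretch of bins in which the RXRα signal reached 20 times the input or more, with the genome mean taken as the lowest input, compared to 47.9% of all genes. At 7 of them, with Elovl3 as the exception, a RARα peak overlapped an RXRα region by at least 25% of the narrower interval, which is called co-localized here and was found at 27.2% of all genes. Windows differ in length, so the same was counted within 10 kb of the start alone, where all windows are equal. All 8 members then kept a RARα peak, compared to 52.2% of all genes, all 8 kept an RXRα region, compared to 39.8%, and 6 kept a co-localized peak, compared to 23.5%. Within 1 kb of the start, 7 had a RARα peak (40.9% of all genes), 5 an RXRα region (21.6%) and 5 a co-localized peak (15.8%). The 8 genes are few and liver genes were not matched on expression, so these shares describe the genes and were not tested.

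**Figure D1:**
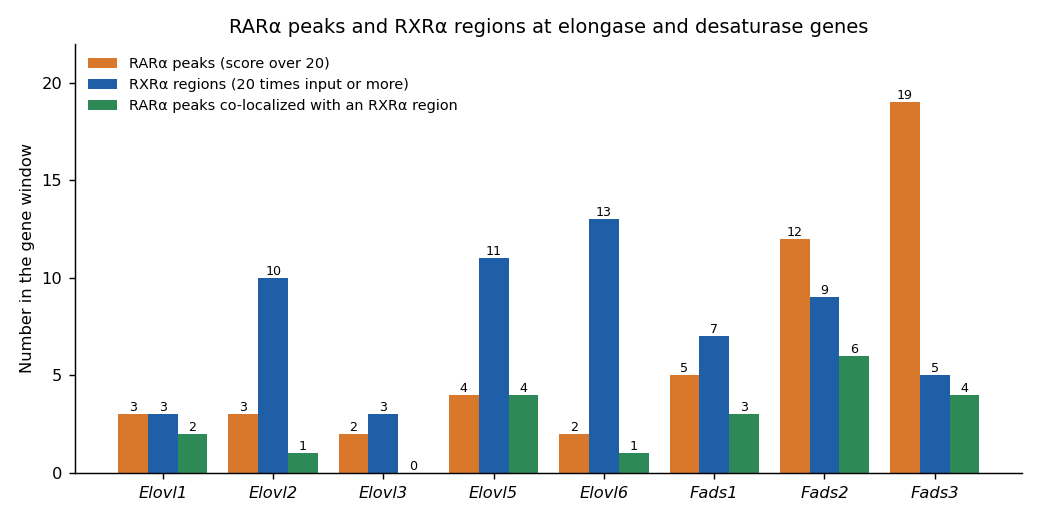
Number of RARα peaks with a score over 20, of RXRα regions and of co-localized RARα peaks (vertical axis) in the window of each gene (horizontal axis), from 1 library per antibody. RXRα regions outnumber RARα peaks most at Elovl2, Elovl5 and Elovl6, and RARα peaks outnumber RXRα regions at Fads2 and Fads3, but no longer do once adjoining RARα peaks are merged (9 and 4 peaks).

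At the thresholds used, the elongase windows together held more RXRα regions than RARα peaks. In the desaturase windows, the order depended on how adjoining RARα peaks were counted. The RARα score and the RXRα ratio are unlike measures, so both orders also depend on the thresholds. Without a score threshold, RARα peaks outnumbered RXRα regions at each elongase, from 13 against 11 at Elovl5 to 41 against 13 at Elovl6. With scores over 20, the windows of the 5 elongases together held 14 RARα peaks and 40 RXRα regions over 281 kb. Those of the 3 desaturases held 36 RARα peaks and 21 RXRα regions over 99.4 kb. Per 100 kb of window this was 4.98 RARα peaks for the elongases and 36.2 for the desaturases, compared to 2.60 over all protein-coding genes. The corresponding RXRα densities were 14.2 for the elongases, 21.1 for the desaturases and 2.67 over all genes. Fads2 and Fads3 contributed 31 of the 36 RARα peaks of the desaturases, while Fads1 had fewer RARα peaks than RXRα regions. RXRα bins were joined over gaps of up to 200 bp, but RARα peaks that follow each other at 10 bp were counted singly. In a further count, such RARα peaks of any score were merged before the score threshold was applied. The elongases then had 13 merged peaks and the desaturases 17, which was fewer than their 21 RXRα regions. The merged density was 4.62 per 100 kb for the elongases and 17.1 for the desaturases, compared to 1.98 over all genes. By gene, the 19 peaks of Fads3 then became 4, against 5 RXRα regions, and the 12 of Fads2 became 9, against 9. In all, the windows held 50 RARα peaks, of which 21 (42.0%) were co-localized, compared to 32.2% of all 32946 RARα peaks with a score over 20. They held 61 RXRα regions, of which 20 (32.8%) were co-localized, compared to 25.1% of all 42117 regions of the genome. Among the regions in the windows of all genes, which is the closer comparison, 31.3% were co-localized. The median score of the RARα peaks was 34 in these windows and 33 over all such peaks, and the median highest ratio of the RXRα regions was 39.0 and 34.8, respectively. The typical site in these windows was thus of about the same height as elsewhere in the genome.

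At the gene starts, RXRα lay above input for most of these genes. Within 1 kb of the Fads2 start, 182 RXRα reads and 16.8 input reads were present, which was a ratio of 10.8 (95% interval 6.50 to 18.8). This ratio exceeded that of 98.6% of all genes. Elovl1 had a ratio of 6.93 (3.89 to 12.5), Elovl5 of 6.66 (3.43 to 14.6), Elovl6 of 6.19 (3.86 to 10.04) and Fads1 of 5.09 (3.26 to 8.24). Elovl3 followed with 3.15 (1.84 to 5.72) and Elovl2 with 2.08 (1.14 to 3.84). At the Fads3 start, 9.80 RXRα reads and 14.0 input reads gave a ratio of 0.70 (0.28 to 1.73), so RXRα above input was not detectable there at this depth. In this order the intervals of neighbouring genes overlapped, while the interval of Fads2 lay above those of Elovl3, Elovl2 and Fads3. The median of the 8 ratios was 5.64, compared to 1.36 over all genes. Input itself was above its genome mean of 3.77 reads per kb at all 8 starts, from 4.96 reads per kb at Elovl5 to 11.7 at Fads1. The median input over the starts of all genes was 4.86 reads per kb, so input above the genome mean was usual at gene starts. The part of input in the ratios was not tested.

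**Figure D2:**
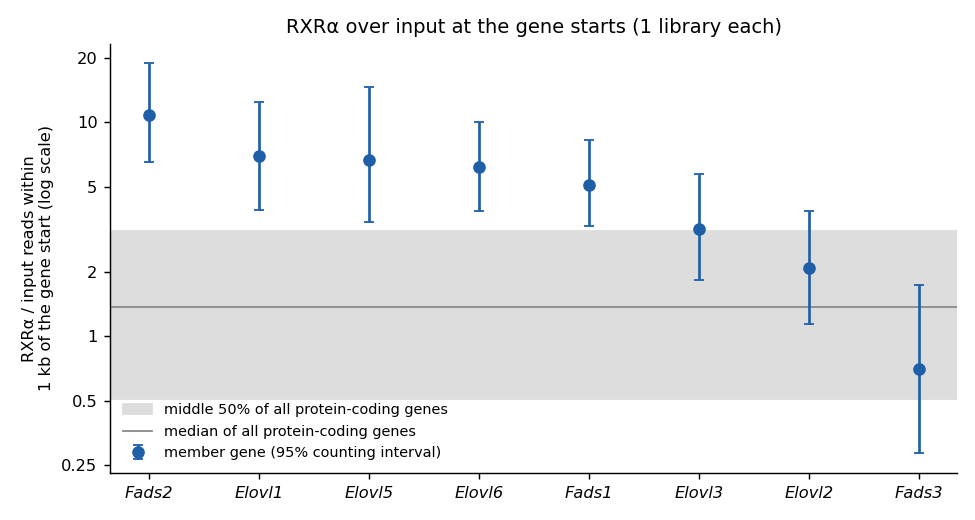
Ratio of RXRα to input reads within 1 kb of the gene start (vertical axis, log scale) for the 8 genes (horizontal axis), with 95% counting intervals as bars, and the median and middle 50% of all protein-coding genes in grey. Fads2 has the highest ratio at 10.8, and Fads3 the lowest at 0.70.

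RXRα was also above input inside the genes. Over the gene body beyond the first 1 kb, the ratio of RXRα to input reads was highest for Fads1 at 5.09 (4.09 to 6.46), with 476 RXRα reads against 93.4 input reads. Fads2, which had the highest ratio at its start, had the lowest over its body at 2.27 (1.97 to 2.61). The other genes ran from 2.95 for Elovl6 to 4.01 for Elovl1, and the Fads3 body had a ratio of 3.68 (3.04 to 4.47). The median over the 19073 genes with such a body was 0.771.

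Beyond 10 kb from the start, the elongases had RXRα regions but no RARα peak of a score over 20. Elovl2, Elovl5 and Elovl6 together had 22 RXRα regions there and 0 RARα peaks of that score, so that none of these regions could be co-localized. This depended on the score threshold. Some of the regions overlapped RARα peaks of lower score, up to 20 at Elovl2, 18 at Elovl5 and 19 at Elovl6, and others overlapped none. The desaturases had 8 RXRα regions at that distance, of which 6 were co-localized, and 22 of their 36 RARα peaks, 7 at Fads2 and 15 at Fads3. With adjoining peaks merged, 7 of their 17 RARα peaks lay there. Over all genes, 26.8% of RARα peaks lay beyond 10 kb, and 18.4% of the 15439 RXRα regions at that distance were co-localized. Within 1 kb of the start, 3 of 4 RXRα regions of the elongases and 3 of 4 of the desaturases were co-localized, compared to 68.1% over all genes. The regions belong to few genes and share their library, so these counts are a description. Among all RXRα regions of the 8 genes, 5 had a highest ratio of 100 or more, all of them in elongase windows, 4 beyond 10 kb and 1 at Elovl3, and 0 of these were co-localized. In the genome, 39.7% of the 2613 regions of that height were co-localized, but this share covers all distances from a gene start. For the 4 regions beyond 10 kb, the result only repeats the lack of RARα peaks with a score over 20 there. The 5 regions all had 0 input reads in the highest bin, so their ratios were taken to the genome mean input. Regions with more RXRα reads in the highest bin fell below 100 where input reads were present. These were Fads1 at 5742 bp (89 RXRα and 2 input reads, ratio 44.5) and Elovl5 at 26173 bp (99 and 1, ratio 99.0). Of the 41 RXRα regions without a co-localized RARα peak, 24 overlapped a RARα peak with a score of 9 to 20, which was below the score threshold, and 17 had no RARα peak of any score.

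**Figure D3:**
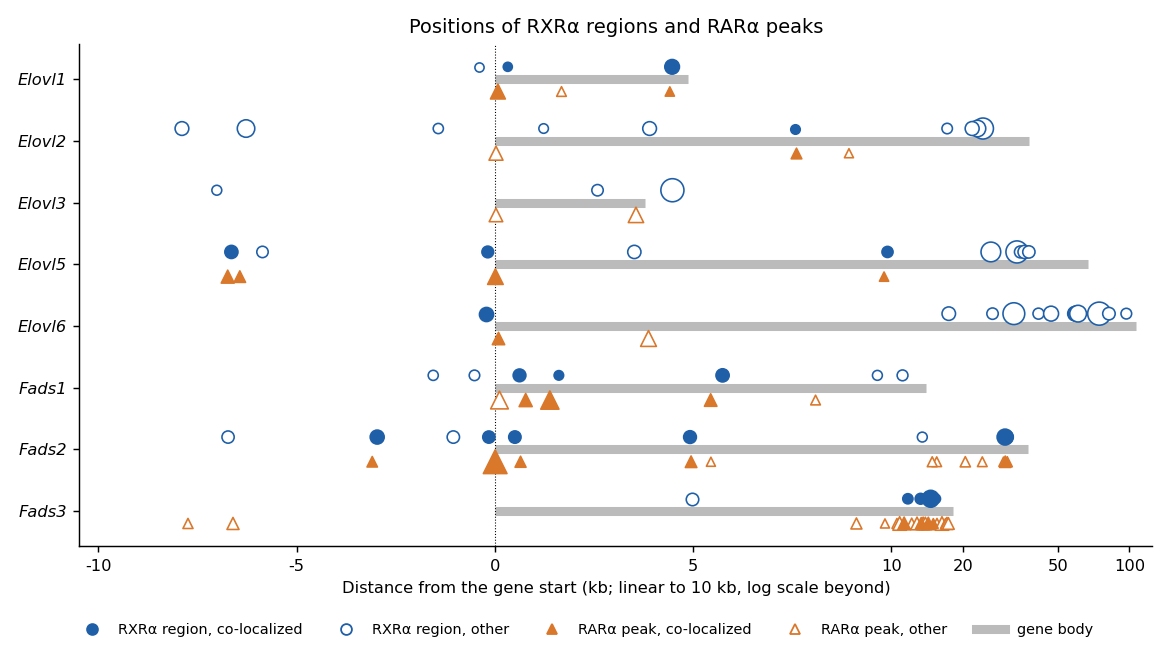
Positions of RXRα regions (circles, area by highest ratio over input) and RARα peaks with a score over 20 (triangles, area by score) along the distance from the gene start (horizontal axis, kb, linear up to 10 kb and log scale beyond) for each gene (vertical axis), with the gene body as a grey bar. Filled symbols are co-localized, and the 22 circles beyond 10 kb at the elongases are all open.

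Elovl6 (ENSMUSG00000041220.6, chromosome 3, 129235304 to 129341413, plus strand) encodes the elongase that makes stearate from palmitate. It had 13 RXRα regions, of which 12 were intronic and more than 10 kb from the start, and 2 RARα peaks. The RXRα region just upstream of the start, from 129234881 to 129235264, had a highest ratio of 51.0 and was co-localized with a RARα peak of score 39. That RARα peak, with its summit at 71 bp in the untranslated exon, had 118 RXRα reads against 9 input reads. The higher RARα peak of Elovl6, with a score of 64, was intronic at 3871 bp, outside any RXRα region, where the ratio of RXRα to input was 4.59. The strongest RXRα regions were in introns at 74680 bp, which is the region whose sequence is given above, and at 32696 bp. In the highest bin of the former, 82 RXRα reads and 0 input reads were present. With the input set to 3 reads, RXRα was 27.3-fold higher in that bin, and the ratio to the genome mean input was 136. The bin was picked for its height, so this fold is no minimum for the region. Over the whole region, the lower bound of the counting interval was 23.9. In the highest bin of the latter, 73 RXRα reads and 0 input reads gave 24.3-fold on the same basis and a ratio of 121. The lower bound over that whole region was 17.2. Neither region held a RARα peak of any score. Elovl6 had 39 further RARα peaks with scores of 20 or less.

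Elovl5 and Elovl2 lengthen polyunsaturated chains. Elovl5 (ENSMUSG00000032349.7, chromosome 9, 77765171 to 77832326, plus strand) had 11 RXRα regions and 4 RARα peaks, and all 4 RARα peaks were co-localized. The highest-scoring one was over the start, with its summit at 14 bp, a score of 62 and an RXRα ratio of 10.7. A pair of peaks at -6736 and -6431 bp, outside any gene, had scores of 43 and 34, and the former had 98.6 reads of RXRα to 5.80 of input, or 17.0 times (7.32 to 46.0). The fourth was intronic at 9814 bp with a score of 22. The strongest RXRα region of Elovl5 was intronic at 33693 bp, and the RARα peak under it had a score of 10. In the highest bin of this region, 75 RXRα reads and 0 input reads gave 24.998-fold with the input set to 3 reads. Over the whole region, the lower bound of the counting interval was 14.1. Elovl2 (ENSMUSG00000021364.9, chromosome 13, 41277864 to 41315774, minus strand) had 10 RXRα regions and 3 RARα peaks. Its start had the highest-scoring RARα peak, with a score of 50, but over that peak 5.40 RXRα reads and 2.20 input reads gave a ratio of 2.45 (0.41 to 26.3), so RXRα above input was not detectable there at this depth. Its single co-localized peak was intronic at 7594 bp with a score of 29 and a ratio of 6.87 (3.65 to 14.4). The strongest RXRα region of Elovl2 was intronic at 24238 bp, and the RARα peak under it had a score of 14. In the highest bin of this region, 68 RXRα reads and 0 input reads gave 22.7-fold on the same basis. The lower bound over the whole region was 14.0. At Elovl2 and Elovl5 the highest-scoring RARα peak and the strongest RXRα region were thus at different places, which also held for each of the other genes.

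Elovl3 and Elovl1 are short genes. Elovl3 (ENSMUSG00000038754.3, chromosome 19, 46206387 to 46210184, plus strand) had 2 RARα peaks and 3 RXRα regions, none of them co-localized. The RARα peaks were at the start, with a score of 47, and in the last untranslated exon at 3558 bp, with a score of 60. Their RXRα ratios were 3.65 (1.64 to 10.5) and 4.53 (1.82 to 13.3). The strongest RXRα region lay just past the end of Elovl3, from 46210593 to 46211136, in a coding exon of the neighbouring gene Pitx3 on the opposite strand, although the Elovl3 start was the nearest gene start. This region had 82 RXRα reads and 0 input reads in its highest bin, which was 27.3-fold with the input set to 3 reads. Over the whole region, 122 RXRα reads and 3.80 input reads were present, and the lower bound of the counting interval was 11.6. The RARα peaks that overlapped it had scores of 19 and 16, just under the threshold of 20, so the lack of co-localization at Elovl3 depended on that threshold. Elovl1 (ENSMUSG00000006390.9, chromosome 4, 118100698 to 118105558, plus strand) had 3 RARα peaks and 3 RXRα regions. Besides the co-localized peak over its start, with a score of 57, a co-localized peak with a score of 22 lay in the last untranslated exon at 4412 bp. There 55.2 RXRα reads and 4 input reads gave a ratio of 13.8 (5.08 to 52.2), the highest of its RARα peaks with a score over 20, and the strongest RXRα region of the gene overlapped this site.

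**Figure D4:**
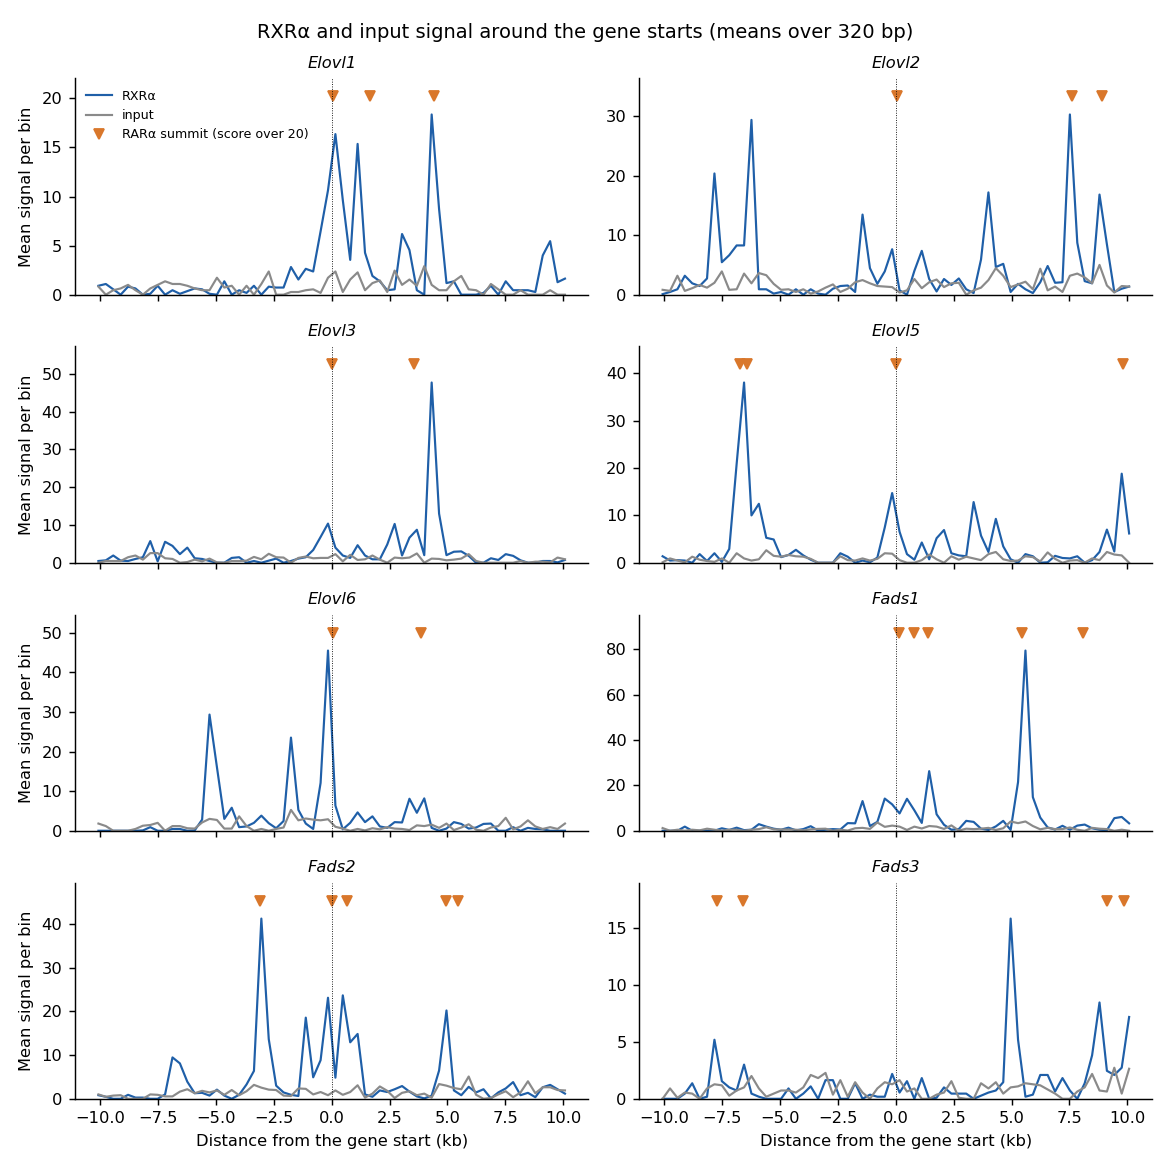
Mean signal per 32 bp bin of RXRα, scaled to the input total, and of input (vertical axes, means over 320 bp) by distance from the gene start (horizontal axes, kb), with RARα summits of score over 20 as triangles. RXRα rises above input at the starts of Fads2, Elovl6, Elovl5, Elovl1, Fads1 and Elovl3, and less so at that of Elovl2. It also rises beyond the end of Elovl3 and stays near input at the Fads3 start.

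Fads2 (ENSMUSG00000024665.7, chromosome 19, 10138654 to 10175993, minus strand), the desaturase that takes the first step on the essential fatty acids, had 12 RARα peaks and 9 RXRα regions, and 6 of each were co-localized. The RARα peak over the start, from 10175731 to 10176591, had a score of 143, which was the highest among the 8 genes and above the highest score of 98.3% of all genes. Over this peak, RXRα had 72.8 reads and input had 8.20, a ratio of 8.88 (4.39 to 21.9), and RXRα regions lay at -151 and 505 bp. Co-localized peaks with lower scores were found at 648 bp with a score of 31 and at -3092 bp with a score of 28, where the RXRα ratios were 12.1 and 12.8. In an intron at 4948 bp, a peak with a score of 34 was co-localized, although its ratio over the whole peak was 4.11. The strongest RXRα region of Fads2 was intronic at 30025 bp and had 39 RXRα reads and 0 input reads in its highest bin. This was 13.0-fold with the input set to 3 reads, while the lower bound of the counting interval over the whole region was 5.48. The region was co-localized with a RARα peak of score 33. This peak had the highest RXRα ratio among the RARα peaks of Fads2 with a score over 20, at 18.5 (9.25 to 49.6). This peak and the next one, at 30673 bp, lay nearer to the start of Fads3 than to that of Fads2. Of the 9 RARα peaks of Fads2 that lay more than 1 kb inside the gene, 7 had an RXRα ratio under 5, with a median of 1.63.

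The RARα list covered most of Fads2 and much of Fads3 with adjoining peaks. Fads2 had 94 RARα peaks of any score in its window, of which 82 had a score of 20 or less. The peaks covered 76.4% of the Fads2 body, 63.8% of the Fads3 body and 48.7% of the Fads1 body, compared to a median of 2.50% over the 13506 genes of 10 kb or longer, of which 0.837% were covered by 50% or more. Among these genes, Fads2 ranked 53, Fads3 77 and Fads1 122 by the covered share. Elovl2, Elovl6 and Elovl5 were covered by 15.1%, 12.1% and 3.46%. The shorter Elovl1 and Elovl3 were covered by 55.1% and 20.2%. RARα peaks of any score that follow each other at a distance of 10 bp were merged, and the score threshold was applied afterwards. The 50 RARα peaks of the 8 genes with a score over 20 then became 30. Of the 12 such peaks of Fads2, 11 had an adjoining neighbour of any score, and of the 19 of Fads3, 18 had one.

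**Figure D5:**
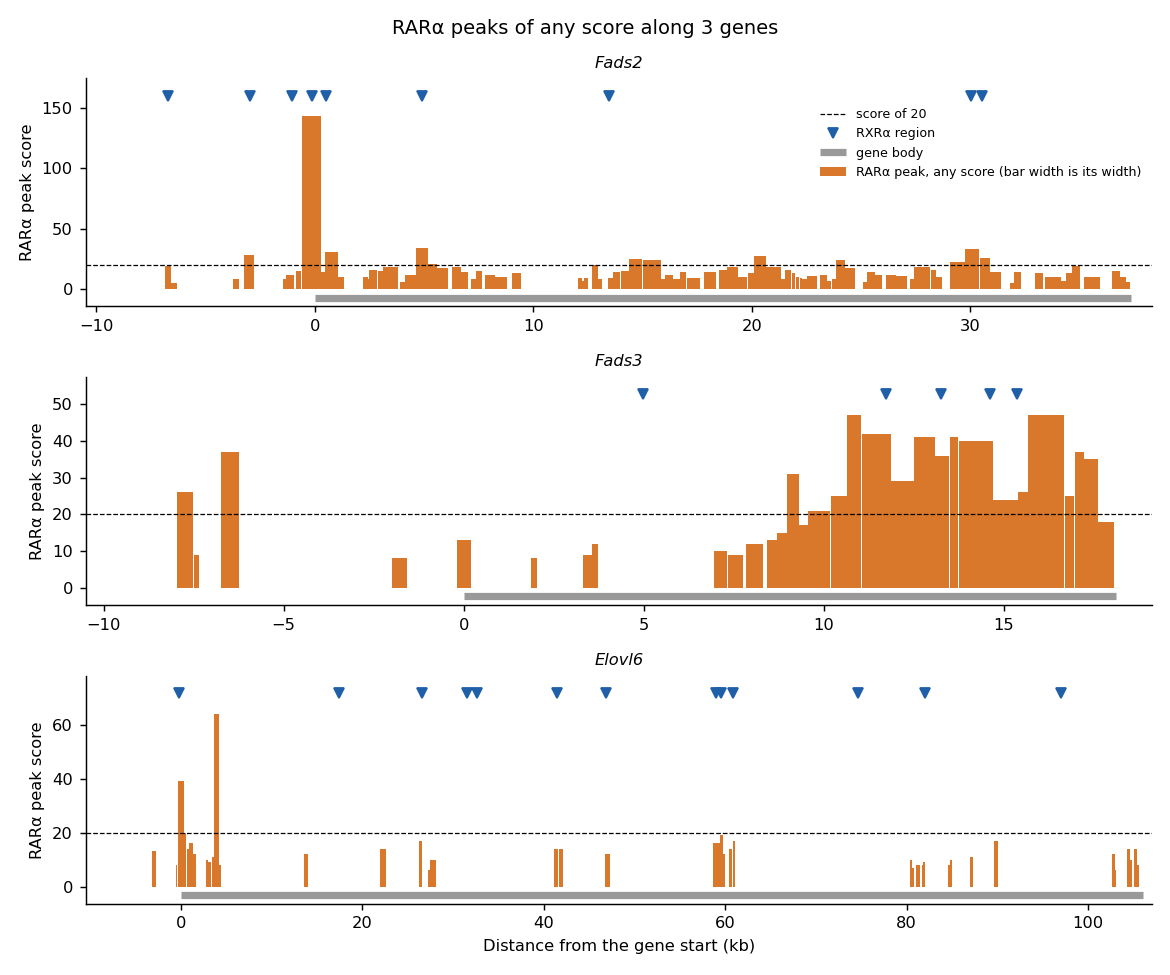
RARα peaks of any score (bars, height is the score, width is the peak width) along the distance from the gene start (horizontal axes, kb) at Fads2, Fads3 and Elovl6, with the score of 20 as a dashed line and RXRα regions as triangles. Fads2 is tiled by low-scoring peaks with 1 tall peak of score 143 at its start, Fads3 has its peaks of up to 47 in the far part of the gene, and Elovl6 has its 2 peaks over 20 near the start.

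Fads3 (ENSMUSG00000024664.3, chromosome 19, 10116038 to 10134161, plus strand), whose product is less well understood than the other desaturases, was the gene whose start held neither a RARα peak of score over 20 nor an RXRα region within 1 kb. All 17 RARα peaks inside the gene had their summits past its midpoint, from 9117 to 17347 bp from the start, with scores of 21 to 47 and a median of 36. The 2 remaining RARα peaks of its window, with scores of 26 and 37, were upstream in exons of the neighbouring gene Rab3il1. Over the 17 peaks the median RXRα ratio was 3.78, and 12 ratios were under 5. The lowest ratio was 1.0 and the highest 19.7, the latter from 30.8 RXRα reads and 0 input reads with the genome mean set as input. Of these peaks, 4 were co-localized. The strongest RXRα region of Fads3, at 14618 bp, had 73 RXRα reads and 1 input read in its highest bin, and 68.2 RXRα reads over 1.60 input reads over the region. The RXRα region nearest to the Fads3 start was intronic at 4970 bp and had no RARα peak.

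Fads1 (ENSMUSG00000010663.4, chromosome 19, 10257378 to 10271360, plus strand), which acts after Fads2 in the synthesis of arachidonic acid, had 5 RARα peaks and 7 RXRα regions. The RARα peaks of highest score were intronic at 1387 bp, with a score of 85 and an RXRα ratio of 9.55 (4.54 to 25.4), and over the start at 117 bp, with a score of 80 and a ratio of 5.42 (2.61 to 11.5). The former was co-localized and the latter was not, while the intervals of their ratios overlapped. The strongest RXRα region was intronic at 5742 bp, where the highest bin held 89 RXRα reads and 2 input reads. The RARα peak over it had a score of 40 and 216 RXRα reads against 14.4 input reads, a ratio of 15.0 (8.997 to 28.7). Fads1 and Fads2 lie on opposite strands and are transcribed away from each other, and no RARα peak or RXRα region was shared between the windows of the 8 genes.

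Few of the sites of these genes held a direct repeat. A hexamer was counted when it differed from AGGTCA in at most 1 letter, and repeats with a spacing of 1 to 5 bases were searched on both strands in windows of 201 bp. Around the highest bins of the 61 RXRα regions, 8 windows (13.1%) held a direct repeat, compared to 17.8% of all 42117 regions and 7.44% of windows 1 kb away from those regions. Around the summits of the 50 RARα peaks, 2 windows (4.0%) held one, compared to 8.62% of all RARα peaks and 7.47% of windows 1 kb away. DR1 was found at 1 of the 61 RXRα regions, which is the Fads1 site shown above, compared to 7.61% of all regions. Its centre was 0 bp from the centre of the highest bin, where 15 RXRα reads and 0 input reads were present. The Fads2 DR4 was a repeat of 2 unchanged hexamers, 47 bp from a RARα summit with a score of 22. The DR4 of the intronic Elovl6 region had 1 unchanged hexamer and lay 33 bp from the highest bin. From 250 bases before to 50 bases after the start, 0 of the 8 genes held a direct repeat, compared to 7.59% of all gene starts. The Fads2 promoter printed above had 14 CpG and 64.8% G and C in 250 bases, compared to medians of 8 and 54.0% over all genes. The 8 promoters ranged from 7 CpG at Elovl3 to 49 at Elovl2. A match of letters is no evidence of binding, and the lack of one in these windows says nothing on the receptor that was bound.

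Among the other genes of the pathway, most regulators of fatty acid synthesis had both receptors, while the shares of the enzyme lists were nearer to those of all genes (57.9% with a RARα peak, 47.9% with an RXRα region and 27.2% with a co-localized peak). Among 9 other elongase and desaturase genes, 5 had a RARα peak, 5 an RXRα region and 2 a co-localized peak. These 2 were Degs1, which introduces the double bond of ceramide, with a highest co-localized score of 95, and Fads6 with 71. Scd3 and Scd4 had neither a RARα peak nor an RXRα region. Among 7 genes of the other steps of the elongation cycle, 5 had a RARα peak, 5 an RXRα region and 3 a co-localized peak, namely Ptplb and Ptplad1, which dehydrate the elongated chain, with scores of 82 and 63, and Tecr, which carries out the last reduction, with a score of 29. Tecrl and Ptplad2 had neither. Among 9 regulators of fatty acid synthesis, all 9 had a RARα peak, 8 an RXRα region and 8 a co-localized peak. The highest co-localized scores were 137 at Mlxipl, which encodes the carbohydrate response element binding protein, 88 at Nr1h3, which encodes LXRα, and 87 at Srebf1, which encodes sterol regulatory element binding protein 1. Nr1h2, the gene of LXRβ, was the regulator without an RXRα region. The median ratio of RXRα to input at the start was 1.05 for the other elongases and desaturases, 3.29 for the elongation cycle genes and 4.06 for the regulators, compared to 5.64 for the 8 members.

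As a check of the tissue label, sites were counted at marker genes, although binding is no measure of expression. All 6 hepatocyte markers had a co-localized peak, compared to 27.2% of all protein-coding genes. Such a peak was also found at 2 of 8 markers of other liver cells, near the share of all genes, and at 0 of 4 markers of other tissues. Single sites were found at both kinds of marker. A RARα peak was present at 3 of the 8 and 2 of the 4, compared to 57.9% of all genes. An RXRα region was present at 2 of the 8 and 2 of the 4, compared to 47.9%. The markers are few and their counts were not tested. The RXRα signal corresponded to 9999939 reads and the input signal to 9999292 reads, and the list of 143280 RARα peaks carries no read numbers. The study reports more uniquely mapped reads for RXRα than its signal corresponds to. Totals this alike may come from a scaling or selection of reads by the authors, and which of these applied was not tested. The intervals therefore hold for the reads in the tracks and not for all those sequenced.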

How the data were processed

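According to the study's methods, Bowtie was used for alignment, MACS for peak calling and Peak Analyzer for annotation. The labels' processing notes also name CASAVA 1.4. The authors deposited the RXRα and input libraries as tracks of linear signal, a whole number per 32 bp bin on mm9. The totals of 22 of 22 chromosomes could be divided by 5, and 1 read was therefore taken to add 1 to each of 5 bins. Reads over a window are its summed signal divided by 5, and reads in a single bin are its signal. For RARα, the deposited list gives each peak with its score and with its false discovery rate in percent, and the scale of the score is not given in the sources used here. The study's methods name mm10 for alignment. The headers name mm9, and 0 RARα peaks lay beyond a chromosome end of NCBI37/mm9, which was used throughout.

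Tracks were scaled to the same mean. Bins with RXRα at least 20 times the larger of local and mean input were joined within 200 bp. RARα peaks with a score over 20 were assigned by summit and RXRα regions by midpoint to every window that held them. Ratios over peaks and starts are RXRα over input, where an input below the genome mean (0.603 per bin) was raised to it, and their 95% intervals are exact conditional (Clopper-Pearson) intervals of rounded reads, which treat reads as independent. Intervals are printed only where the input was not raised. The lower bounds over whole RXRα regions use the rounded reads without raising the input.

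The members and lists were chosen with earlier results of these data known. Named genes were the 8 members, at most 3 genes per other list by co-localized score, list genes without any site, and neighbours at member sites. Sites named in detail were the highest of each gene, and further sites were chosen after their values were seen. The false discovery rate was not used as a filter. Detection, overlap and intervals were tested on simulated data. Python 3.11.15, numpy 2.4.6, pandas 2.3.3, scipy 1.17.1, pysam 0.24.0 and matplotlib 3.10.9 were used.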

Additional observations from a re-analysis of the deposited data

How the results depend on the processing

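Across 73 alternative values, 53 stayed near the reported value and 20 did not. For counts, near meant within 1.5 times. For the median ratio at the starts, it meant between the medians of the lower and of the upper interval bounds of the 8 genes, 3.34 and 9.14. Members with a RARα peak stayed at 6 or more of 8 and those with a co-localized peak at 5 or more, except for 4 with scores greater than 50. Members with an RXRα region were 5 within 1 kb of the start and 8 otherwise. RARα peaks numbered 238 without a score threshold, 29 with scores greater than 30, 7 with scores greater than 50, 28 within 10 kb of the start alone or by the nearest gene start, 9 within 1 kb, and 30 after merging abutting peaks, an alternative chosen after seeing the data. RXRα regions numbered 209 at 5 times input, 119 at 10 times input, 31 within 10 kb or by the nearest gene start, and 8 within 1 kb. Co-localized RARα peaks numbered 52 without a score threshold, 4 with scores greater than 50, 39 and 32 at 5 and 10 times input, and 6 within 1 kb. These follow from the thresholds and window lengths themselves. The median ratio at the starts was 10.9 when the mean input alone was used, since input at these starts was above its mean, and 4.02 to 7.42 under the other settings. No paired analysis was possible because each antibody has a single library and the labels carry no replicate numbers, and no replicate could be left out. Many highest bins held 0 input reads (41 of 61 regions), so their ratios to the genome mean input are limited by depth.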
